A study of Mus musculus with 5 samples.

Results

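The cells described here are barcodes that carried transcripts of blood vessel cells in the first 2 libraries, 0 and 144 h, of a single-cell RNA sequencing time course of the mouse testis. A barcode was kept with at least 500 UMIs (unique molecular identifiers, each standing for 1 captured RNA molecule), at least 250 genes and under 20% mitochondrial UMIs. It was taken as endothelial with a UMI of at least 3 of Pecam1, Cdh5, Kdr, Tie1, Flt1, Emcn and Egfl7, or as mural with Rgs5 and at least 1 of Notch3, Cspg4, Abcc9, Kcnj8 and Higd1b, and no barcode met both conditions. This gave 208 barcodes of 16896 kept, out of 17722 deposited for these times and 46451 in the series. There were 65 endothelial and 15 mural barcodes at 0 h, and 112 endothelial and 16 mural barcodes at 144 h. The 2 libraries had 24 barcode sequences in common, and none of them was among the 208.

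The series holds 5 libraries of whole testis from mice whose spermatogenesis was synchronized, 1 library each at 0 h (the group labelled Control), 144, 350.4, 556.8 and 763.2 h (labelled EP1 to EP4), placed by the design text at recurring stages VIII-IX of the seminiferous epithelium. The labels give no strain, age, genotype or synchronizing agent, and do not say how many testes went into a library. Tubules were digested with collagenase and DNase, left to settle and rinsed with removal of the supernatant before further digestion. Which vessel cells were lost with it was not tested. With 1 library per time no test between times was possible. All intervals below are exact, at 95%, and cover counting error only.

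Endothelial cells line blood and lymphatic vessels. VEGF receptors, Tie receptors, Notch signals and ETS and SOX factors set their identity, and arteries, capillaries, veins and lymphatic vessels use different sets of genes. Mural cells wrap the endothelium: pericytes lie on capillaries and smooth muscle cells on larger vessels, and endothelial PDGF-B acting on PDGFRB recruits them. In the testis the vessels run between the tubules, and testicular capillaries are known for carrying barrier transporters that most peripheral capillaries lack.

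The barcodes that met the endothelial rule were of 2 kinds, and 1 kind had very many UMIs and next to no other endothelial transcripts. That kind was the larger at 0 h (41 against 24 barcodes) but not at 144 h (54 against 58). A set of 22 further endothelial markers that the rule did not use, among them Cldn5, Esam, Tek, Ptprb, Sox17 and Myct1, separated the barcodes. Those with exactly 3 rule genes, just inside the limit, had a median of 58257 UMIs and 0.987 marker UMIs per 10000 at 0 h (40 barcodes), and 45719 and 0.975 at 144 h (51 barcodes). Those with 2 rule genes, just outside it, had 1.12 per 10000 at 0 h (250 barcodes) and 0.974 at 144 h (353 barcodes). Barcodes with all 7 rule genes had a median of 103.7 per 10000 at 0 h (7 barcodes) and 141.6 at 144 h (35 barcodes). Barcodes with at least 30 of these marker UMIs per 10000 are called marked endothelial cells here. The limit was chosen after the values were seen. They numbered 24 at 0 h and 58 at 144 h, against 10 and 10 among the 16688 other barcodes. Only 4 members at 0 h and 2 at 144 h lay between 30 and 50, and 5 and 2 between 10 and 30. The other 41 and 54 barcodes carried germ cell markers at a median of 20.5 and 36.1 UMIs per 10000, against 0 and 0.768 in the marked cells. They go against the name endothelial and are called unmarked barcodes.

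**Figure D1:**
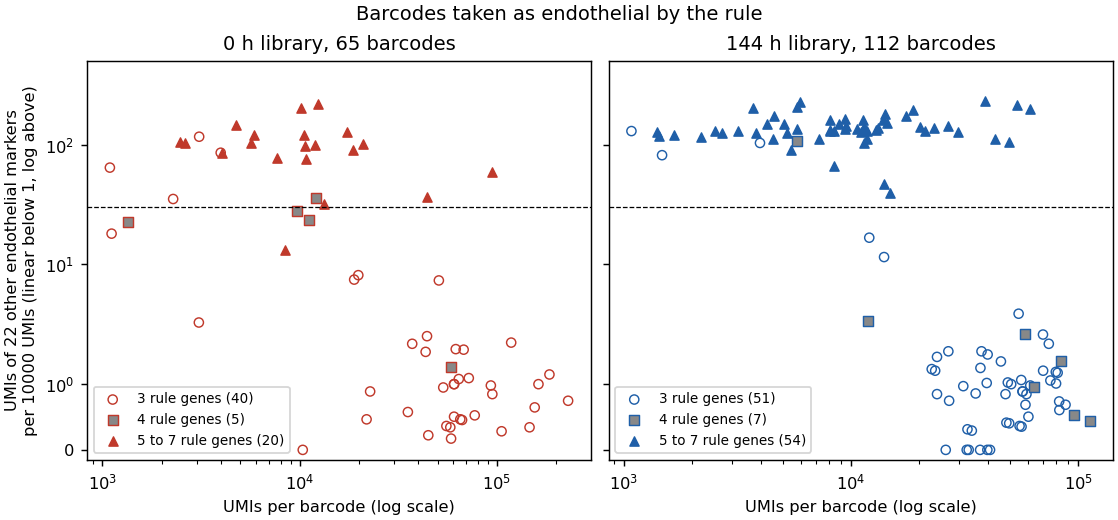
UMIs per barcode (x axis, log scale) against UMIs of 22 endothelial markers outside the rule per 10000 (y axis, linear below 1 and log above), 1 symbol per barcode that met the endothelial rule. Symbols give the number of rule genes detected and the dashed line marks 30 per 10000. The 24 and 58 marked cells lie above the line, and most barcodes with 3 rule genes lie near 1 per 10000 at the right of the plot.

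In unmarked barcodes the 7 rule genes together had at most 10 UMIs in any of the 41 at 0 h, where Egfl7 was found in 37 and Pecam1 in 27. At 144 h the highest total was 36 UMIs, with 32 of Pecam1 in 1 barcode, and Egfl7 was found in 52 of 54. Cdh5, the adhesion protein VE-cadherin, was also found outside the vessels: barcodes with a UMI of at least 3 stromal markers (3204 and 1136) held 55.2 CPM (UMIs scaled to the same total in each sum) at 0 h and 62.1 CPM at 144 h, against 20.8 and 11.1 CPM over all other barcodes. Among those without 3 markers of the Sertoli, macrophage or peritubular myoid lists (540 and 181), Cdh5 was at 120 and 131 CPM. In marked cells Cdh5 was at 803 and 845 CPM.

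Marked endothelial cells were 0.298% of kept barcodes at 0 h (0.191 to 0.443) and 0.655% at 144 h (0.498 to 0.846), and these intervals do not overlap. By the rule alone the shares were 0.808% (0.624 to 1.03) and 1.27% (1.04 to 1.52). Mural barcodes by the rule made up 0.186% (0.104 to 0.307) and 0.181% (0.103 to 0.293). Later libraries held 10, 5 and 2 endothelial barcodes at 350.4, 556.8 and 763.2 h. Of these 3, 1 and 0 were marked, and 0 of 11475, taken as fewer than 3 counts, allows a share of up to 0.0261%. They also held 7, 4 and 3 mural barcodes. A share depends on how many cells of every type were recovered, so fewer vessel cells and more cells of other types cannot be told apart.

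The marked cells were of similar median depth in both libraries. They had a median of 10342.5 UMIs and 3041 genes at 0 h and 9145 UMIs and 3100 genes at 144 h, with 4.00% and 4.35% mitochondrial UMIs, and their sums held 331280 and 747096 UMIs. The deepest cell alone held 94783 of these UMIs at 0 h and 61174 at 144 h. A list of genes for such checks was picked after the values were seen, and 52 of their ratios were past 2-fold. Without the deepest cell of each library all 52 stayed so. Under 1% mitochondrial UMIs were found in 7 of 24 cells at 0 h and 1 of 58 at 144 h. Sertoli markers were at a median of 4.11 and 10.0 UMIs per 10000, and 4 cells in each library exceeded 100. Summed over the cells, 10 Sertoli markers were at 4172 CPM at 0 h and 1707 CPM at 144 h, 7 stromal markers were at 57.4 and 9.37 CPM, and 8 macrophage markers at 3.02 and 1.34 CPM with 7 of the 8 at 0 in both. How much of the ratios below came from other cells' RNA was not tested directly. With the library's profile subtracted 51 of these 52 picked ratios stayed past 2-fold, and Slc16a1 did not. Leaving out cells with over 2 times the median share of other cells' markers kept 46 of 51. Mgp, Slc16a1, Slc2a1, Slco1a4 and Vegfc fell under 2-fold there.

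The genes that set the marked cells most apart from all other barcodes were, in order, Cldn5, Gpihbp1, Aplnr, Adgrl4, Myct1, Ctla2a, Sox17, Icam2, Cyyr1, Gimap6, Abcb1a, Gimap4, Ptprb, Esam and Vwf. Cldn5, Gpihbp1, Myct1, Sox17, Icam2, Ptprb and Esam are among the 22 markers that chose the cells, so their place in the order is a description only. Cldn5, the tight junction protein claudin-5, was at 906 and 2672 CPM in marked cells against 0.306 and 0.494 CPM in other barcodes. Abcb1a, which encodes the drug efflux pump P-glycoprotein, was at 142 and 543 CPM against 0.139 and 0.184 CPM. Aplnr, the apelin receptor, was at 175 and 175 CPM, and Ctla2a at 1168 and 1119 CPM. Neither differed between the times beyond counting error.

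Promoters of 8 of these 15 genes were matched by symbol in the RefSeq table (GRCm38.p6). Shown here are the 100 bases upstream of the start for the tight junction gene, an adhesion receptor gene, the efflux pump gene and the lipid carrier gene Mfsd2a, first of the genes named below, in capitals where the ETS motif AGGAAG (on the other strand CTTCCT) or the separate motif CCGGAA (on the other strand TTCCGG) was found; the ETS factors Erg and Fli1 were themselves at 81.5 and 133 CPM and 145 and 207 CPM. The windows are chr16:18776747-18776846 (plus strand), chr3:151437782-151437881 (plus strand), chr5:8566991-8567090 (plus strand) and chr4:122961189-122961288 (minus strand), each printed 5′ to 3′ along its gene.
Cldn5: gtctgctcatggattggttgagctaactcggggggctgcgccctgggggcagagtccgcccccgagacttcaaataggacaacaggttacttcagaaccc
Adgrl4: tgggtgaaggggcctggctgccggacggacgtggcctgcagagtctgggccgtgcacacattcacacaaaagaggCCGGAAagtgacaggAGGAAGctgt
Abcb1a: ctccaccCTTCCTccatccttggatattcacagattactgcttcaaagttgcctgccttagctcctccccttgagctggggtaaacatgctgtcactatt
Mfsd2a: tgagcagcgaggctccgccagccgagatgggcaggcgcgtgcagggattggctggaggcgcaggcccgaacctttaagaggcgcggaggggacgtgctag
AGGAAG on either strand occurred within 250 bases upstream of 4 of the 8 matched genes (Adgrl4, Abcb1a, Gimap4 and Cyyr1), against 29.2% of 27025 promoters in the table. CCGGAA occurred in 1 of 8, against 12.2%. The match is a description of letters and says nothing of binding.

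Between 0 and 144 h the rule genes differed little in the marked cells, which had been chosen partly by them. Kdr, the main VEGF receptor, was at 546 and 534 CPM, a ratio of 0.977 (0.818 to 1.17). Cdh5 gave 1.05 (0.91 to 1.22) and Pecam1 1.07 (0.89 to 1.28), while Flt1, the decoy VEGF receptor, gave 1.61 (1.28 to 2.04). None of the 7 rule genes was at least 2-fold apart. Of 6793 genes with at least 20 UMIs, 15.4% were at least 2-fold apart in either direction, 9.52% higher and 5.84% lower at 144 h, and the median log2 ratio over all of them was 0.0567. Genes count as apart by their ratio alone, whatever its interval. Lists below count a member as measured with at least 10 UMIs over both libraries. With that minimum 11.4% of 8859 genes were higher and 9.15% lower, and lists are read against these shares.

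Barrier and transport genes formed the list with the most higher members. Of 18 such genes 15 were measured, 10 were at least 2-fold higher and 2 (Abcc1 and Slc38a5) at least 2-fold lower, with a median log2 ratio of 1.46. Mfsd2a, the carrier of lysophospholipids that is known from brain capillaries, had 11 UMIs in 7 of 24 cells at 0 h and 297 UMIs in 29 of 58 cells at 144 h. Its level went from 33.2 to 398 CPM, a ratio of 12 (6.59 to 24.2). Single cells spread widely, from 0 to 9.17 UMIs per 10000 at 0 h (median 0) and from 0 to 24.7 at 144 h (median 0.357). Thinned to 1000 UMIs per cell it was 1.79, under 2-fold, from 3 and 13 UMIs. With every cell given the same weight the ratio was 3.46. Other barcodes of like depth (medians of 6133 and 9986 UMIs) held a Mfsd2a UMI in 6.83% and 9.28% of cases, against 29.2% and 50% of marked cells, and held 13.7 and 22.6 CPM over all depths. The share in marked cells was above that of the other barcodes at both times.

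Abcb1a had 47 UMIs in 13 of 24 cells and 406 UMIs in 50 of 58 cells, 142 and 543 CPM, a ratio of 3.83 (2.83 to 5.3). Its lowest, median and highest values per cell were 0, 0.818 and 6.59 UMIs per 10000 at 0 h and 0, 4.72 and 24.1 at 144 h. A UMI was found in 0.0899% and 0.288% of the other barcodes of like depth. The cells of the 2 libraries overlapped in range, but the median cell was higher at 144 h, and the ratio with equal cell weights was 3.64. Slc7a5 and Slc3a2, the light and heavy chains of the large neutral amino acid carrier, went from 254 to 808 CPM and from 423 to 1269 CPM, ratios of 3.19 (2.53 to 4.06) and 3.0 (2.51 to 3.61). Slco1a4, an organic anion carrier, went from 51.3 to 161 CPM, a ratio of 3.13 (1.88 to 5.55). Thinned, it had 0 UMIs at 0 h and 11 at 144 h, at least 1.52-fold higher with 3 counts in place of 0. It was under 2-fold with a marked limit of 60 per 10000 (1.55). Slco1a4 was also under 2-fold without cells rich in other cells' markers. Abcg2, the other main efflux pump of barrier vessels, had a smaller ratio of 1.77 (1.39 to 2.27). The glucose carrier Slc2a1 (2.04 (1.27 to 3.39)) and the monocarboxylate carrier Slc16a1 (2.04 (0.758 to 6.87)) had ratios just above 2, which with equal cell weights were 0.987 and 0.843. Thinned to 1000 UMIs per cell, the share of cells with a UMI went from 16.7% to 53.4% for Slc7a5, from 37.5% to 63.8% for Slc3a2, from 25% to 37.9% for Abcb1a and from 12.5% to 19% for Mfsd2a.

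Of 12 junction genes, all measured, Cldn5, Esam and Cgn were at least 2-fold higher and none lower. Cldn5 gave 2.95 (2.61 to 3.34) and 1.9 with equal weights; its median per cell was 4.82 UMIs per 10000 at 0 h and 16 at 144 h. Esam, an adhesion molecule of endothelial junctions, went from 380.3 to 972 CPM (2.55 (2.11 to 3.11)), but gave 1.86 with equal weights, 1.62 with a marked limit of 60 per 10000 and 1.03 thinned. Without the 4 junction genes that helped to choose the cells (Cdh5, Pecam1, Cldn5 and Esam), 1 of 8 was higher. Tjp1 (ZO-1), a scaffold of tight junctions, was at 211 and 189 CPM (0.893 (0.666 to 1.21)).

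The genes named by rank included 2 outside these lists that belong with transport. Bsg (basigin), a chaperone of monocarboxylate carriers, was at 486 and 2460.2 CPM, a ratio of 5.06 (4.31 to 5.98), and 4.39 with equal weights. Its thinned share of cells went from 37.5% to 70.7%. Pltp, the phospholipid transfer protein, had 19 UMIs at 0 h and 316 at 144 h, a ratio of 7.37 (4.64 to 12.4), and was found in 42 of 58 cells at 144 h. The 10 highest by the interval bound nearest 1 were, beside Mfsd2a, Pltp and Bsg, Alox12 (16.2 (4.32 to 136), from 2 UMIs), Rgs10 (24.8 (4.28 to 998), from 1 UMI), Tnfrsf19 (11 (4.15 to 41.1)), Ier3 (7.72 (4.1 to 16.4)), Cxcl12 (4.87 (3.92 to 6.12)), the secreted protease Htra1 (5.24 (3.85 to 7.3)) and the interferon-responsive nuclear body gene Sp100 (9.13 (3.79 to 28.7)). Cxcl12 was under 2-fold, at 1.73, with equal weights and at 1.84 thinned. In all 56 genes met the naming rule upward and 21 downward.

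Over all 65 and 112 barcodes that met the rule the sums held 2944470 and 3496295 UMIs, most of them from unmarked barcodes. There 12058 genes were tested and 20.9% were at least 2-fold apart, 11.1% higher and 9.84% lower. The 10 named as higher were Kit, Tbx1, Ly6a, Srgn, Gja4, Pltp, P2rx4, Abcb1a, Htra1 and Cldn5, and the 3 lower were Fabp4, Ccl21a and Upp1. Kit, a receptor also carried by differentiating germ cells, had a ratio of 16.8 (10.2 to 29.7) over all these barcodes but 1.16 (0.495 to 3.04) in marked cells. Tbx1 likewise gave 12.8 (7.18 to 25.3) and 0.507 (0.161 to 1.64), and P2rx4 8.02 (5.21 to 12.9) and 1.33 (0.46 to 4.68). Abcb1a gave 6.98 (5.18 to 9.59) and Cldn5 5.53 (4.9 to 6.26) over the rule's barcodes, in the direction seen in marked cells. Mfsd2a gave 5.14 (3.81 to 7.05).

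**Figure D2:**
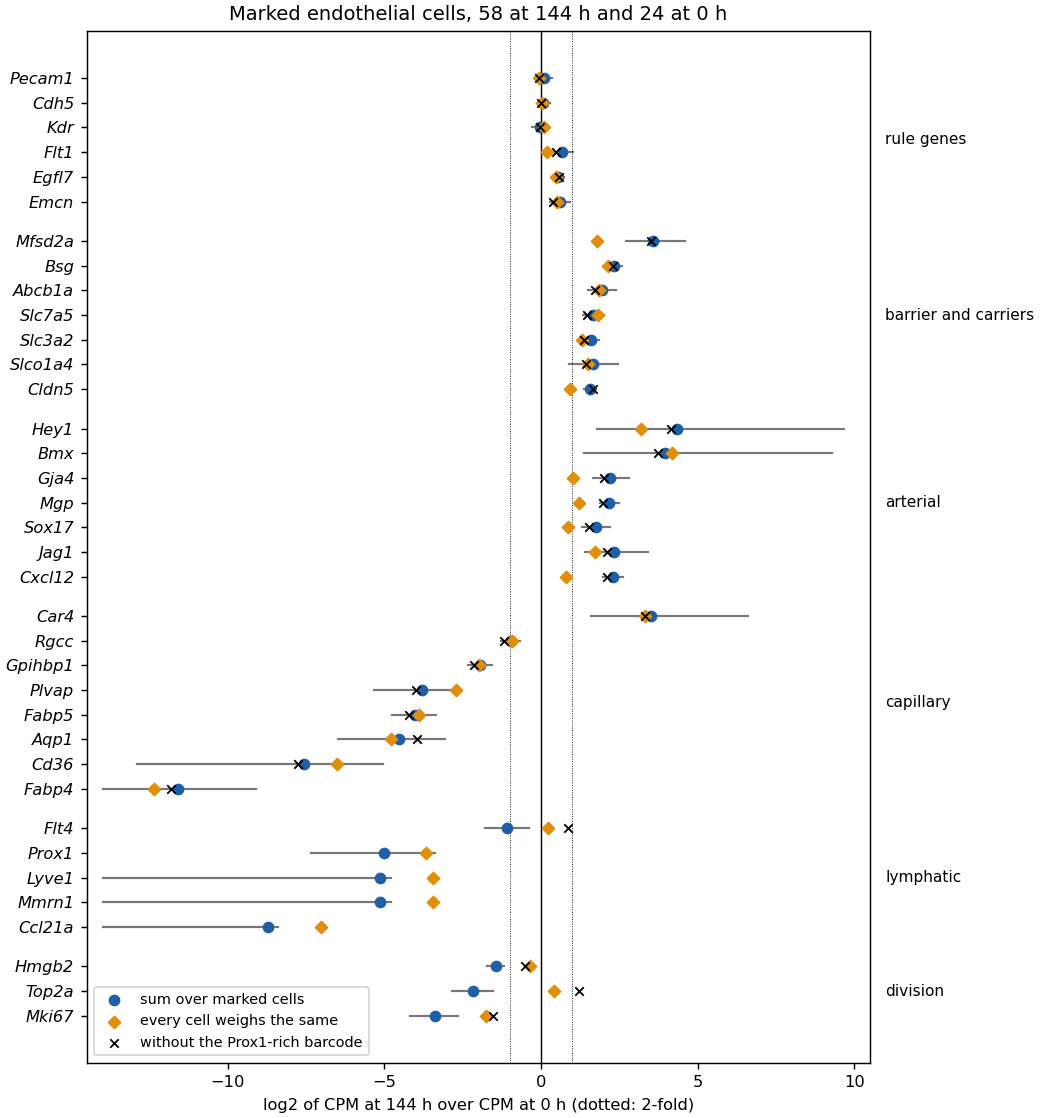
Log2 ratio of CPM at 144 h to CPM at 0 h in marked endothelial cells. Circles are sums over cells with exact 95% intervals of counting error (grey, shortened at the left of the plot where wider), diamonds give every cell the same weight, crosses leave out the barcode richest in Prox1 (no cross where fewer than 10 UMIs then remain), and 3 counts stand in for 0. Barrier and arterial genes lie to the right, Car4 alone of the capillary genes drawn lies to the right, and crosses for Flt4 and Top2a change side.

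Arterial genes were higher as a group. Of 12 genes 11 were measured, 7 were at least 2-fold higher (Gja4, Sema3g, Bmx, Hey1, Cxcr4, Sox17 and Mgp) and none lower, with a median log2 ratio of 1.58 and of 0.58 with equal cell weights. Without Sox17, which helped to choose the cells, 6 of 10 were higher, with a median of 1.30. Gja4, the arterial gap junction protein connexin 37, was at 84.5 and 391 CPM (4.62 (3.13 to 7.08)). Sox17, a factor of arterial identity, was at 148 and 497 CPM (3.36 (2.49 to 4.62)), and 1.82 with equal weights. Mgp, a secreted inhibitor of BMP signals, was at 326 and 1479 CPM (4.54 (3.72 to 5.58)), but under 2-fold without cells rich in other cells' markers. These sums rested on few cells. Cells with at least 20 Gja4 UMIs, a limit chosen after the values were seen, numbered 1 of 24 at 0 h (12371 UMIs) and 5 of 58 at 144 h (143040 UMIs, 19.1% of the sum). The same 5 cells carried most UMIs of several arterial genes. Mgp was at 6586 CPM in the 5 and 269.8 CPM in the other 53, and Cxcl12, a chemokine of arterial endothelium, at 4286 and 603 CPM. The Notch ligand Jag1 was at 615 and 41.4 CPM, the kinase gene Bmx at 203 and 9.93, and endothelin gene Edn1 was 10.2 (6.08 to 17.6) times higher in the 5. Sema3g gave 24.3 (11.3 to 59.6), Alox12 12.9 (7.46 to 23.4), Hey1, a target of Notch, 7.92 (4.18 to 15.6) and Fbln5, an elastic fibre protein, 7.78 (5.17 to 11.9). In the other direction, Car4 had 0 UMIs in the 5 and 52 in 15 of the other 53, and the 5 had 0.248 (0.149 to 0.389) times the level of Emcn, 0.115 (0.037 to 0.274) times that of Rgcc and 0.0445 (0.00111 to 0.254) times that of Gpihbp1, from 1 UMI. Barrier genes split: Abcb1a (0.941 (0.721 to 1.21)) and Bsg (0.89 (0.787 to 1.0)) were alike in the 5 and the 53 to within these intervals, while Slco1a4 (0.302 (0.127 to 0.615)), Abcg2 (0.375 (0.245 to 0.553)), Slc7a5 (0.501 (0.38 to 0.649)) and Slc3a2 (0.566 (0.46 to 0.69)) were lower in the 5, and Cldn5 (3.02 (2.76 to 3.3)) and the taurine carrier Slc6a6 (3.79 (3.18 to 4.51)) higher.

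Capillary genes went mostly the other way. Of 11 genes 8 were measured, 6 were at least 2-fold lower at 144 h (Gpihbp1, Cd36, Fabp4, Fabp5, Aqp1 and Plvap) and Car4 higher, with a median log2 ratio of -3.91. Without Gpihbp1 and Plvap, which helped to choose the cells, 4 of 6 were lower and 1 higher, with a median of -4.28. Fabp4, a fatty acid carrier of peripheral capillaries, had 1372 UMIs at 0 h, of which 951 lay in 1 cell, and 1 UMI at 144 h. Cd36, a fatty acid receptor, had 84 UMIs in 2 cells at 0 h and 1 at 144 h. The 2 cells with over 100 Fabp4 UMIs had 27940 UMIs between them; without them the median of the list was -1.14 and Plvap, the diaphragm protein of fenestrated vessels, had a ratio of 0.609 in place of 0.0719. Gpihbp1, which tethers lipoprotein lipase to capillaries, did not rest on those cells: it was found in 16 of 24 and 31 of 58 cells, at 495 and 128 CPM, 3.85-fold lower (2.98 to 5.01), and gave 0.386 without them and 0.255 with equal weights. Its median per cell was 3.31 and 0.333 UMIs per 10000, and its thinned share of cells went from 37.5% to 10.3%. Fabp5, a relative of Fabp4, was 16.2-fold lower (10.2 to 27), and 0.275 times its 0 h level without those 2 cells. Car4, a carbonic anhydrase on the capillary surface, had 2 UMIs in 1 cell at 0 h and 52 UMIs in 15 cells at 144 h, where 0.0481% of other barcodes of like depth held it, a ratio of 11.5 (3.04 to 97.7). Of those 15 cells 9 also held Mfsd2a, near the share of all marked cells at 144 h that held it, given above.

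Lymphatic genes were nearly all from 1 cell. Prox1, the factor that specifies lymphatic endothelium, had 43 UMIs at 0 h, all in 1 cell with 44310 UMIs, 13.4% of the 0 h sum. That cell also held all 47 Lyve1, 47 Mmrn1 and 556 Ccl21a UMIs of the 0 h marked cells, and at 144 h Prox1 had 3 UMIs in 3 cells and the other 3 genes had 0. All 7 lymphatic genes measured were at least 2-fold lower at 144 h. The lower side rested largely on 1 cell of 24. Flt4, the VEGF-C receptor, had a ratio of 0.468 (0.289 to 0.76) with that cell and of 1.82 without it. Venous genes showed no common direction: of 6 measured Vwf was higher (2.34 (1.71 to 3.27), 1.45 with equal weights) and Nr2f2 and Lrg1 lower, and Nr2f2, the factor of venous identity, had 35 of its 43 UMIs at 0 h in the Prox1-rich cell.

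The lower side of the division genes rested largely on the same cell. Of 19 genes 10 were at least 2-fold lower and 1 higher, with a median log2 ratio of -1.17, which was -0.18 without the Prox1-rich cell. Mki67, a marker of cycling cells, had 67 of its 88 UMIs at 0 h in 1 cell, and gave 0.0957 (0.055 to 0.159) with the Prox1-rich cell and 0.348 without it. Top2a gave 0.222 (0.138 to 0.349) with it and 2.3 without it. Mki67 was found in 4 of 24 and 7 of 58 marked cells, and in 20% and 32.3% of other barcodes of like depth.

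**Figure D3:**
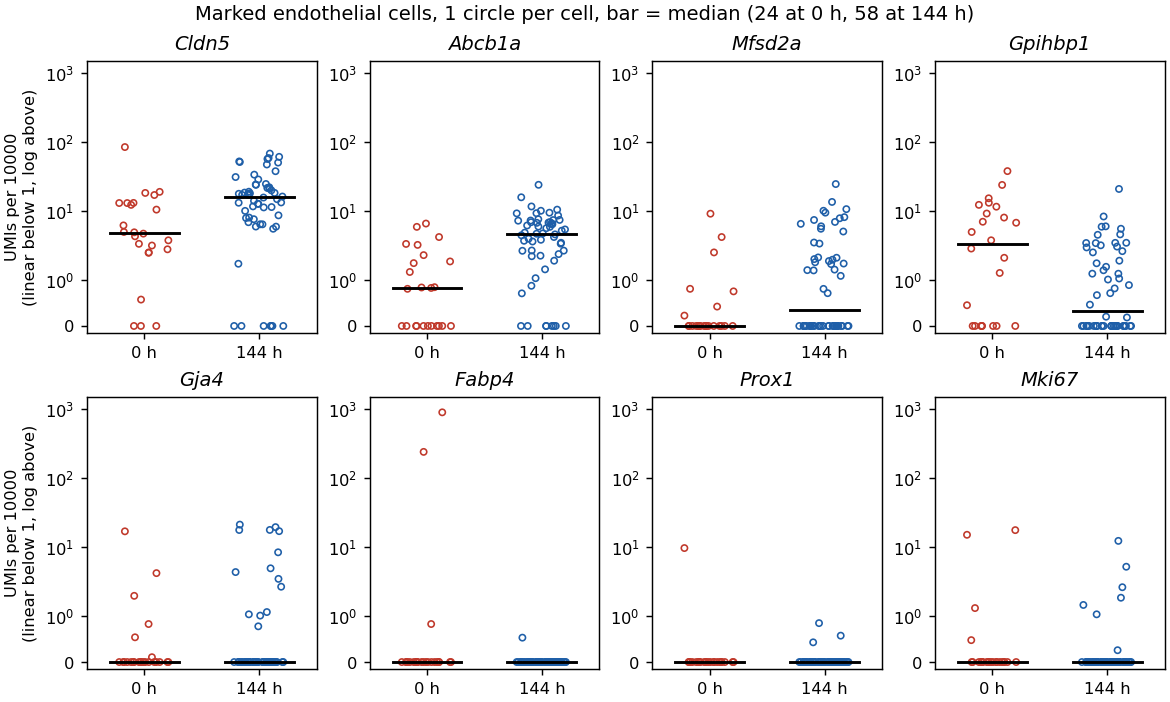
UMIs per 10000 in each marked endothelial cell for 8 genes (y axis, linear below 1 and log above), 24 cells at 0 h and 58 at 144 h, with the median as a bar. Cldn5 and Abcb1a have higher medians at 144 h and Gpihbp1 a lower one, while Fabp4 and Prox1 at 0 h stand on 2 cells and 1 cell, and 5 cells stand out for Gja4 at 144 h.

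Of 8 VEGF ligands and receptors measured, Vegfa and Vegfc were higher and Flt4 and Nrp2 lower. Nrp1, a co-receptor, was at 447 and 659.9 CPM (1.48 (1.23 to 1.79)), and Vegfa went from 3 to 38 UMIs in 22 of 58 cells. In the angiopoietin list 1 of 4, Angpt1, was higher; its receptor gene Tek was at 129.8 and 175 CPM (1.35 (0.951 to 1.95)) and Tie1 at 205 and 286 CPM (1.4 (1.06 to 1.86)). In the Notch list 4 of 12 measured were higher (Jag1, Rbpj, Hes1 and Hey1) and Notch2 lower. The ligand Dll4 (1.09 (0.695 to 1.76)) and the receptor Notch1 (0.984 (0.71 to 1.38)) showed no difference beyond counting error, while Jag1 gave 5.01 (2.63 to 10.7), with the Gja4-rich cells named above holding most of it. In the BMP and TGF-beta list 6 of 16 were higher (Bmp2, Bmp4, Tgfb2, Acvrl1, Tgfbr1 and Smad6) and none lower. Eng, a co-receptor of that family, was at 571 and 1139 CPM (2.0 (1.7 to 2.35)). Of 17 endothelial transcription factors measured Sox17, Gata2, Hhex and Epas1 were higher and Meox2 lower. Without Erg, Sox17 and Sox18, which helped to choose the cells, 3 of 14 were higher and 1 lower. Klf2, which responds to blood flow, was at 634 and 1031 CPM (1.63 (1.39 to 1.9)).

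Of 13 leukocyte adhesion and MHC genes measured 6 were higher (H2-K1, Ly6a, Ly6c1, Ly6e, Cxcl10 and Cx3cl1) and 2 lower (Sele and Cxcl1). Without Icam2 and Ly6c1, which helped to choose the cells, 5 of 11 were higher and 2 lower. Ly6a, the surface antigen Sca-1, had 16 UMIs in 6 of 24 cells and 220 UMIs in 44 of 58, against 0.449% and 1.97% of other barcodes of like depth. Its ratio was 6.1 (3.67 to 10.9), and its thinned share of cells went from 4.17% to 31%. Ly6c1 gave 2.71 (2.34 to 3.16). Among 15 basement membrane genes, all measured, Sparc (2.19 (2.08 to 2.31)) and its relative Sparcl1 (2.12 (1.82 to 2.49)) were higher and none was lower. Sparc was also at 1426 and 1614 CPM in other barcodes and gave 1.93 without the Prox1-rich cell. Col4a1, a chain of type IV collagen, was at 1790.0 and 1431 CPM (0.799 (0.722 to 0.885)). Igfbp7, a secreted protein abundant in endothelium, was found in every marked cell, at 4594 and 8417 CPM (1.83 (1.73 to 1.94)). Of 14 genes that respond to tissue dissociation 3 were higher and 2 lower (median log2 ratio 0.41), with Fos at 335 and 495 CPM.

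Mural barcodes were few and of different kinds in the libraries. At 144 h 13 of 16 carried at least 20 UMIs per 10000 of 9 non-contractile mural markers outside the rule (marked mural cells, a limit chosen after the values were seen), and Rgs5, a regulator of G-protein signals and the gene every member had to carry, reached 142 UMIs in 1 cell. At 0 h 6 of 15 met that limit, but 12 of 15 had under 5000 UMIs. Sertoli markers were at a median of 61.0 UMIs per 10000 over the 15, against 5.90 at 144 h, and at 59.8 in the 6 marked cells. The 12 shallow barcodes at 0 h held Rgs5, which the rule required, at 1573 CPM (1134 to 2125) from 42 UMIs. They also held the histone gene Hist1h1b at 3483 CPM and the Sertoli gene Inha at 1011 CPM. Other 0 h barcodes with 1000 to 5000 UMIs held Rgs5 at 2.97, Hist1h1b at 475 and Inha at 555 CPM. The Rgs5 difference follows from the rule. Only 1 of the 15 had more than 7 Rgs5 UMIs, a barcode with 2464 UMIs, 15 of Rgs5 and none of the Sertoli markers. Of the 3 deeper ones, 2 (18846 and 37333 UMIs) held 111 and 208 UMIs of the smooth muscle actin gene Acta2 together with 93 and 149 UMIs of the stromal gene Dcn, and the third (68568 UMIs) held none of either. The 12 shallow barcodes also held mural genes outside the rule above the other barcodes, with Gucy1a3 at 1049, Ndufa4l2 at 374, Cox4i2 at 187 and Pdgfrb at 262 CPM, against 35.5, 1.87, 1.44 and 3.57 CPM in the other barcodes. The 3 deeper ones held 124747 of the 151450 UMIs at 0 h, with no UMI of Ndufa4l2 or Cox4i2. The ratios below therefore compare sums of unlike makeup.

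Pericyte genes were mostly higher at 144 h. Of 3145 genes tested 23.8% were at least 2-fold apart, 15.4% higher and 8.36% lower at 144 h, with a median log2 ratio of 0.121. With the 10 UMIs asked of list members the shares were 19.6% and 11.1%. All 12 pericyte genes were measured and 11 were higher, with a median of 3.65. Without Higd1b, which the rule used, 10 of 11 were higher, with a median of 3.58. Ndufa4l2 and Cox4i2, mitochondrial proteins known as pericyte markers, went from 66 to 789 CPM (12 (6.32 to 25.5)) and from 33 to 800.1 CPM (24.2 (10.2 to 75.7)). Pdgfrb, the PDGF-B receptor of mural cells, was at 52.8 and 435 CPM (8.24 (3.99 to 19.7)). Kcnj8 and Abcc9, which together form the potassium channel of pericytes, had 3 and 2 UMIs at 0 h and 62 and 40 at 144 h, ratios of 17 (5.57 to 84.9) and 16.5 (4.28 to 141); the rule used them, as it used Higd1b (33.5 (11.2 to 165)) and Notch3 (5.15 (2.42 to 12.6)), the Notch receptor of mural cells. Notch3 was at 225 and 222 CPM in the barcodes under 5000 UMIs, and gave 1.41 with equal weights and 2.12 in marked mural cells. In marked mural cells alone, 6 against 13, the ratios were smaller, at 3.27 (1.47 to 9.06) for Ndufa4l2, 4.97 (1.9 to 18.5) for Cox4i2 and 2.16 (0.89 to 6.85) for Pdgfrb. There 32.2% of 936 genes were at least 2-fold apart, 23.5% higher and 8.65% lower. From 10 UMIs 13.8% of 2143 were higher and 19.2% lower. With 3 counts in place of 0, a gene with 10 UMIs at 144 h and none at 0 h counts as lower there. The lower share from 10 UMIs may therefore partly follow from that floor, which the medians in marked mural cells also use. Of the 5 pericyte genes that had no part in choosing these cells, 4 were higher. Of 10 mural transcription factors measured 7 were higher (Tbx2, Foxs1, Heyl, Ebf1, Foxc1, Nr2f1 and Mef2c) and Meis2 lower, with a median of 1.67 that was -0.237 in marked mural cells. Of 7 genes of the PDGF axis 5 were higher and none lower, with a median of 2.14, against 2 higher and 1 lower of 5 and a median of 0.36 in marked mural cells. Without Cspg4, which the rule used, 4 of 6 were higher, with a median of 2.28. Pdgfrb, Cspg4, Mcam and Ednra helped to choose the marked mural cells. Without these genes only 1 was measured there, and it was neither higher nor lower. Of 13 basement membrane genes 7 were higher, among them Col4a1, at 627 and 2302 CPM.

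The genes named by rank were Colec11 (71.7 (12.5 to 2865), from 1 UMI), Gja4 (68.4 (11.9 to 2735), from 1 UMI), Cox4i2, Phlda1, Ano1, Fabp5, Id3, Art3, Ndufa4l2 and Ptp4a3 as higher. Ano1, a chloride channel of contractile cells, had 0 UMIs at 0 h and 37 in 10 of 16 barcodes at 144 h, at least 10.2-fold higher with 3 counts in place of 0 at 0 h. Id3, a target of BMP signals, gave 17.6 (7.33 to 55.4), and Art3, of the ADP-ribosyltransferase family, 41.2 (7.07 to 1660.2), from 1 UMI. The 10 lower were Angptl7, Pbld2, Sfrp2, Igfbp3, Col14a1, Sfrp1, Col11a1 and the histone genes Hist1h4d, Hist1h2ae and Hist1h2ab. The first 7 stood on at most 3 barcodes at 0 h. Angptl7 had 106 UMIs in 2 barcodes at 0 h and 0 at 144 h, at least 42.9-fold lower with 3 counts in place of 0 at 144 h. The histone genes were spread over at least 13 of the 15, as Hist1h4d was found in all 15. Of 7 stromal markers 5 were lower and Tcf21 higher. Dcn had a ratio of 0.463 (0.373 to 0.574), which was 1.54 with equal weights.

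Contractile genes differed between all mural barcodes and the marked ones. Over all members, of 13 measured Myl9, Des and Smtn were higher, Cnn1 was lower, and the median was -0.02. Acta2 was at 2285 and 2575 CPM (1.13 (0.979 to 1.3)) and Tagln, an actin-binding protein of smooth muscle, at 2410.0 and 1987 CPM. In marked mural cells 9 of 11 measured were higher and none lower, with a median of 1.70. There Acta2 gave 3.25 (2.03 to 5.53), Tagln 4.11 (2.33 to 8.04) and Myh11, the smooth muscle myosin, 3.38 (1.28 to 12.7). At 144 h 292 of the 432 Acta2 UMIs and 215 of the 365 Tagln UMIs of these cells lay in 1 cell. At 144 h the 16 barcodes were of 3 kinds: 3 had at least 48 Acta2 UMIs beside 29 to 142 Rgs5 UMIs, 10 marked cells had at most 11 Acta2 UMIs, and the 3 unmarked had 1 Rgs5 UMI each. The 10 held Higd1b in up to 38 and Kcnj8 in up to 17 UMIs. Acta2 was high in most barcodes of the 350.4 and 556.8 h libraries, but not of the 763.2 h library. At 350.4 h 6 of 7 barcodes held 170 to 381 Acta2 UMIs, at 556.8 h all 4 held 133 to 220, and at 763.2 h 1 of 3 held 164. The other 2 at 763.2 h held 33 and 8 UMIs of Higd1b and 13 and 15 of Rgs5, with at most 1 UMI of Acta2. These counts are too small for a level.

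**Figure D4:**
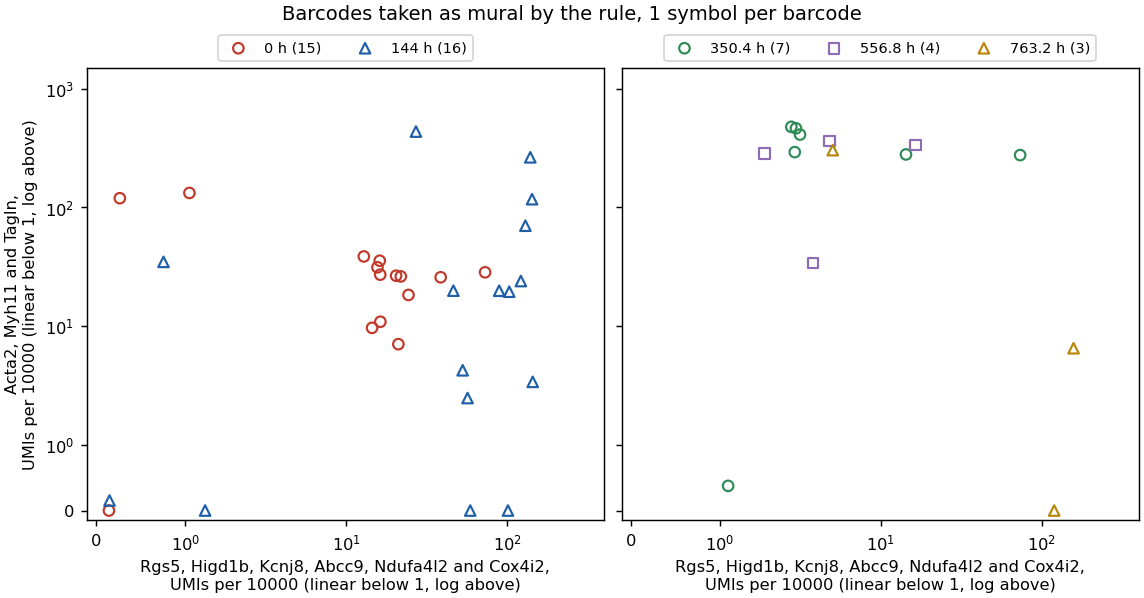
UMIs per 10000 of 6 pericyte and mural genes (x axis) against those of Acta2, Myh11 and Tagln (y axis), both linear below 1 and log above, 1 symbol per barcode that met the mural rule, with 0 and 144 h on the left and the later libraries on the right. At 144 h 13 of 16 barcodes lie above 20 on the x axis, as do some at 0 h, while most later barcodes lie high on the y axis. The rule used Rgs5, Higd1b, Kcnj8 and Abcc9 of the x axis. Ndufa4l2 and Cox4i2 helped to choose the marked mural cells, so places on that axis are a description only.

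At 144 h Pdgfb, the recruiting ligand, was at 174 CPM in marked endothelial cells (130 UMIs) and 41.1 CPM in marked mural cells (4 UMIs). Pdgfrb was at 822 CPM in marked mural cells, which it helped to choose, and had 0 UMIs in marked endothelial cells. Gja4 was found in both, at 391 CPM in marked endothelial and 853 CPM in marked mural cells at 144 h.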

How the data were processed

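Whole testes of synchronized mice were profiled by droplet single-cell RNA sequencing, 1 library per time, and this text uses the 0 and 144 h libraries, with the later 3 for counts of barcodes. The authors deposited UMI counts, not normalized, over 27998 features. Per the file headers the matrices come from Cell Ranger 3.0.2. The submitters' processing notes name the build mm10 and Seurat 4.3.0.1. For alignment and cell calling, settings were not given in the sources used here. Kept barcodes (at least 500 UMIs and 250 genes, under 20% mitochondrial UMIs) had a median of 4028 UMIs at 0 h and 8161 at 144 h.

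For each class and library the counts of its barcodes were added up and expressed as CPM. Ratios of CPM have exact 95% intervals from the conditional binomial distribution and shares have Clopper-Pearson intervals, and 3 counts stand in for 0. Genes with at least 20 UMIs over both libraries were compared with a 2-fold limit. No barcode was left out as a doublet, and leaving out Scrublet scores of at least 0.25 was 1 of the alternatives, beside other limits of the rule, equal cell weights, thinning, subtraction of the library's profile, TMM factors and other count minimums. Named genes were up to 10 per direction, ranked by the interval bound nearest 1, with at least 20 UMIs, at least 50 CPM in the higher library and an interval wholly beyond 2-fold. The limits of marked cells (30 endothelial and 20 mural marker UMIs per 10000) were set after seeing the data. The members, markers and 27 gene lists were chosen with earlier results of these data known. Simulated counts with known fold changes tested the ratio step: for marked endothelial cells (7373 genes) 98.0% of 4-fold and 100% of 8-fold changes were recovered. For mural barcodes (4959 genes) 93.6% and 99.1% were recovered. The simulated sums varied by counting error only, so they say nothing of the spread between cells. Tools were python 3.11.15, numpy 2.4.6, scipy 1.17.1, scanpy 1.11.5 (Scrublet scores) and edgeR 4.0.16 (TMM factors only).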

Additional observations from a re-analysis of the deposited data

Results flagged for a closer look

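Several genes had ratios of 144 over 0 h on opposite sides of 1 in marked endothelial cells and in the barcodes that met the mural rule, each with an interval that leaves out 1. The difference between the cell classes was not tested, since each class has 1 library per time.

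Bmp4, a signal of the BMP family, had a ratio of 5.17 in marked endothelial cells (3 UMIs at 0 h) and 0.055 in mural barcodes. Cdkn1c, an inhibitor of the cell cycle, had 3.33, with 42 of 105 UMIs at 144 h in 1 cell, and 0.127. Sfrp2, a secreted modulator of Wnt signals, was at least 2.07-fold higher in marked endothelial cells with 3 counts in place of 0 at 0 h. Its 14 UMIs there at 144 h lay in 1 cell. In mural barcodes Sfrp2 had a ratio of 0.00959, and 86 UMIs at 0 h lay in 3 barcodes.

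In the other direction, Fabp5 had a ratio of 13.3 in mural barcodes and 0.0617 in marked endothelial cells. Fabp4 was at least 6.05-fold higher in mural barcodes with 3 counts in place of 0 at 0 h. It had 22 UMIs in 5 of 16 mural barcodes at 144 h, and a ratio of 0.000323 in marked endothelial cells. Myl9, a myosin light chain of contractile cells, had 2.67 and 0.239. Mki67 had 2.29 and 0.0957 and Cenpa, a centromere protein, 2.42 and 0.357. Of the mural UMIs at 144 h 22 of 25 for Mki67 and 40 of 50 for Cenpa lay in 1 barcode, and at 0 h 67 of 88 endothelial Mki67 UMIs lay in 1 cell.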

How the results depend on the processing

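No paired analysis was possible because the labels give no replicate numbers and each time has 1 library, so no library could be left out either. The endothelial share at 0 h, 0.808%, was 3.91% with 2 rule genes, 0.311% with 4, 0.510% without barcodes rich in other cells' markers and 0.298% in marked cells. At 144 h, 1.27% became 1.67% with at least 1000 UMIs and 500 genes, 5.24% with 2 rule genes, 0.689% with 4 and 0.655% in marked cells. The mural share at 0 h, 0.186%, became 0.0621% with 3 mural genes and 0.0746% in marked cells.

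Genes at least 2-fold apart over the rule's endothelial barcodes (2524) numbered 1592 with 4 rule genes, 8708 after subtracting the library's profile, 272 thinned to 1000 UMIs, 1044 in marked cells and 5431 with genes of at least 1 UMI. For marked cells (1044) they numbered 1667 with equal cell weights, 110 thinned, 2524 over the rule's barcodes, 4290 from 1 UMI and 394 from 50 UMIs. For mural barcodes (748) they numbered 386 with 3 genes, 1276 profile subtracted, 1357 equal weights, 53 thinned, 301 in marked cells, 5323 from 1 UMI and 190 from 50 UMIs. Dividing by TMM factors took the higher share of these genes from 53.0% to 42.6% over the rule's endothelial barcodes and from 64.8% to 52.4% for mural barcodes. Subtraction and equal weights left the genes tested at 12058 over the rule's endothelial barcodes, 6793 for marked cells and 3145 for mural barcodes. After subtraction every value under 3 counts was set to 3. With 4 rule genes or 3 mural genes fewer barcodes were summed, so those counts are not of the same genes tested. Thinning cut the genes tested, to 1556 over the rule's endothelial barcodes, 617 for marked cells and 201 for mural barcodes. The shares at least 2-fold apart were then 17.5%, 17.8% and 26.4%, against 20.9%, 15.4% and 23.8% unthinned. From 1 UMI the shares were 30.8%, 32.6% and 41.6%, and from 50 UMIs 17.6%, 10.9% and 17.6%. With 3 counts in place of 0, a gene with 1 UMI at 144 h and none at 0 h counts as lower at 144 h. The counts and shares from 1 UMI are therefore partly set by that floor. In marked cells they held 1222 higher and 3068 lower genes.

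The median log2 ratio of division genes in marked cells turned to 0.0992 with equal weights, 0.186 thinned and 1.08 over the rule's barcodes. With equal weights Slc2a1 had 0.987, Slc16a1 0.843, Top2a 1.32 and Flt4 1.16, and thinned Sox17 had 0.776. With a marked limit of 60 Top2a had 2.29 and Flt4 1.70, and without the Prox1-rich cell 2.30 and 1.82. Over the rule's barcodes Mki67 had 1.72, Top2a 2.81 and Hmgb2 2.79. In mural barcodes Dcn had 1.54 with equal weights and 1.55 thinned, and the median of mural transcription factors was -0.237 in marked cells. Of the 52 ratios past 2-fold in marked endothelial cells, from genes picked after the values were seen, 41 stayed so with equal weights. The number was 46 over the rule's barcodes, 51 with the profile subtracted and 52 with TMM factors. Of those with enough UMIs, 15 of 25 stayed so thinned, 35 of 45 with a limit of 60 and 39 of 46 without the Prox1-rich cell. Slco1a4 is counted as lost when thinned, though its 1.52 rests on 3 counts in place of 0 UMIs at 0 h. The limit of 60 and leaving out single cells were chosen after seeing the data. At this depth 3 counts are 9.06 CPM at 0 h and 4.02 CPM at 144 h in marked cells.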

Other observations

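The few marked endothelial cells of the later libraries also held Cldn5 and Abcb1a. At 350.4 h the 3 cells (4688, 10961 and 11148 UMIs) held 28, 10 and 18 UMIs of Cldn5 and 3, 2 and 2 of Abcb1a, with no UMI of Gpihbp1 or Fabp4. The cell with 11148 UMIs held 7 UMIs of Gja4. The cell at 556.8 h (3772 UMIs) held 2 UMIs of Cldn5 and 1 of Abcb1a.

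Retinoid and imprinted genes were not described above. Of 8 retinoid genes measured in marked endothelial cells Rarg, Rxra and Dhrs3 were at least 2-fold higher at 144 h and Aldh1a1 lower. Aldh1a1, an enzyme of retinoic acid synthesis, was at 190.2 and 22.8 CPM with 42 of its 63 UMIs at 0 h in 1 cell, and at 571 and 332 CPM in other barcodes. Of 7 imprinted genes Mest and Plagl1 were lower and Cdkn1c higher. Mest was 20.7-fold lower (8.91 to 58.8), found in 8 of 24 cells at 0 h and 4 of 58 at 144 h.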
